A study of Homo sapiens with 12 samples.

Results

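DDIT4, TXNIP, ARRDC4, TSC22D3, FKBP5 and KLF9 were followed across 12 RNA-seq libraries of renal carcinoma cells. The 6 genes were chosen by name, because DDIT4 was lower with an shRNA against BMAL1 in both cell lines of the study, and the other 5 were added as genes of related regulation. They are 6 of 38021 gene names in the counts table, and all 6 were among the 16838 genes with enough counts to be tested. The 786O line comes from a clear cell renal cell carcinoma that lacks functional VHL, the ubiquitin ligase subunit that removes HIF2α, and WT8 cells are 786O cells in which wildtype VHL is expressed. Both lines received a pLKO.1 shRNA by lentivirus and were selected with puromycin. The shRNA was either scrambled (shControl) or directed at BMAL1 (shBMAL1), the partner of CLOCK in the circadian clock, which gave a shControl and a shBMAL1 group for each line, with 3 biological replicates in each of the 4 groups.

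All 4 groups were grown in medium with fetal bovine serum, and the labels name no glucocorticoid, glucose or oxygen treatment. The labels do not say which construct against BMAL1 was used or at what circadian time cells were collected, and whether WT8 is 1 clone is not stated in the sources used here. WT8 therefore differs from 786O by VHL and by whatever else changed during its derivation. BMAL1, listed under its older symbol ARNTL, was lower with shBMAL1 by 1.62 on the log2 scale in 786O (SE 0.13, adjusted p = 4.9e-13) and by 2.48 in WT8 (SE 0.14, adjusted p = 2.66e-17). VHL was 5.71 log2 units higher in WT8 shControl than in 786O shControl (SE 0.06, adjusted p = 7.61e-38). VHL RNA was not equal in the WT8 groups. Its counts ranged from 31578 to 37514 under the scrambled shRNA, but only from 23607 to 24876 under shBMAL1. In 786O these ranges overlapped, at 602 to 719 and 641 to 740. Library totals ran from 33182005 to 36477484 counts. The kidney transcription factor PAX8 was high in every library, with 10745 to 50597 counts, while the epithelial markers KRT19 and EPCAM had at most 16 and 5 counts in any WT8 library against at least 4939 and 152 in 786O. KRT18 and CDH16 went the other way with shControl, at 17154 to 17388 and 2427 to 2777 counts in WT8. In 786O shControl they had 8495 to 9102 and 315 to 350. Of the 10 listed renal line markers, 4 were higher and 6 lower in WT8 with shControl, beside 39.3% and 40.2% of all genes. With shBMAL1, 2 were higher and 8 lower, beside 36% and 37%. Of 10 markers of blood, endothelial, liver and islet cells, CD68 had 647 to 1503 counts, and the other 9 summed to 2 to 15 counts in 786O libraries and 11 to 63 in WT8 libraries.

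DDIT4, also called REDD1, encodes a stress protein that restrains mTORC1 through the TSC complex, and its transcription responds to hypoxia, to glucocorticoids and to the integrated stress response. TXNIP and ARRDC4 encode α-arrestins that limit glucose uptake, and both are targets of the glucose-sensing pair MondoA and MLX, while TXNIP also binds thioredoxin. TSC22D3 (GILZ), FKBP5 and KLF9 are widely used readouts of the glucocorticoid receptor (GR). TSC22D3 is an anti-inflammatory leucine zipper protein, FKBP5 an HSP90 co-chaperone that lowers the receptor's affinity for hormone, and KLF9 a zinc finger repressor that is also an output of the clock.

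On GRCh37, DDIT4 lies at chr10:74033678-74035794 on the plus strand, TXNIP at chr1:145438490-145442635 (plus), ARRDC4 at chr15:98503933-98517063 (plus), TSC22D3 at chrX:106956451-107020572 (minus), FKBP5 at chr6:35541362-35696360 (minus) and KLF9 at chr9:72999520-73029573 (minus). TSC22D3 overlaps NCBP2L on the opposite strand. FKBP5 overlaps 5 small or noncoding genes, 2 of them, both miRNA genes, on its own strand. Counts of these 2 members could hold reads of the overlapping genes, because the sources do not say how reads were divided. The other 4 members overlap no annotated gene.

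Promoter windows of 300 bases, 250 before and 50 after a RefSeq transcript start, were read for the 6 genes from RefSeq on GRCh38.p14, which gave 11 windows. These are gene starts in the reference, and no binding was measured here. The motifs searched on both strands were the E-box CACGTG bound by CLOCK and BMAL1, the HIF core ACGTG or GCGTG, the GR palindrome made of GNACA and TGTNC with any 3 bases between, and the carbohydrate response element made of CACGNG repeated after any 5 bases. Each E-box also holds the HIF core on both strands. The windows of DDIT4, of TXNIP and ARRDC4 as the α-arrestin pair, and of FKBP5, the member that was higher with shBMAL1 in both lines, are shown 5′ to 3′ on the gene's strand, with every motif match in capitals. They are chr10:72273674-72273973 (plus) for DDIT4, chr1:145996530-145996829 (minus) for TXNIP, chr15:97960453-97960752 (plus) for ARRDC4 and chr6:35688866-35689165 (minus) for FKBP5.
DDIT4: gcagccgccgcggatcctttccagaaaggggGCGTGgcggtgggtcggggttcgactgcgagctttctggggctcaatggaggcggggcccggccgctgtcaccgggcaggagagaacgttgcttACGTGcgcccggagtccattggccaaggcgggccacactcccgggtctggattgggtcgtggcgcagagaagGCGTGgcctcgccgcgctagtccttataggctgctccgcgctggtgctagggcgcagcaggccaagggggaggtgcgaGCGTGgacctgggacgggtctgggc
TXNIP: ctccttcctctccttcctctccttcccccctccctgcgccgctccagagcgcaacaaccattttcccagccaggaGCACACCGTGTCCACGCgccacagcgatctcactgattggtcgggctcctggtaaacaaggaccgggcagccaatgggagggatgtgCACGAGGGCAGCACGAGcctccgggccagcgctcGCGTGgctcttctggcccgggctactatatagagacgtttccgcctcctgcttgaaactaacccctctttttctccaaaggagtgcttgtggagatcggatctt
ARRDC4: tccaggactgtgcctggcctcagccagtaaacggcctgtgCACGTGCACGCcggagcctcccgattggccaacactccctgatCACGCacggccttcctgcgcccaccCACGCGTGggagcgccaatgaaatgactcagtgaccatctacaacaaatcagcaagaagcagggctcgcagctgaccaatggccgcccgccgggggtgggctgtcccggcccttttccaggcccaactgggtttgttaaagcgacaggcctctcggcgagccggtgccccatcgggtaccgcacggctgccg
FKBP5: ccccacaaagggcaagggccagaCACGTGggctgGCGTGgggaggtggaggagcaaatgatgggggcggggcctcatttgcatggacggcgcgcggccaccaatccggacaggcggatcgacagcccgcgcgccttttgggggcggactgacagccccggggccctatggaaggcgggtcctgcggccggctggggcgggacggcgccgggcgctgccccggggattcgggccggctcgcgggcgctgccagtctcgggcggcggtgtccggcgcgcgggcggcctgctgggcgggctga

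The DDIT4 window held 4 HIF cores and no other of these motifs. The TXNIP window shown held a carbohydrate response element from 88 to 72 bases before the start and a GR palindrome from 175 to 163 bases before it, together with 2 HIF cores. The ARRDC4 window held an E-box from 210 to 205 bases before the start, and the FKBP5 window shown held one from 227 to 222 bases before it. HIF cores, with those inside the E-box, numbered 6 in the ARRDC4 window and 3 in the FKBP5 window shown. TXNIP and FKBP5 each had a further window that is not shown. That of TXNIP held 1 HIF core and no other motif, and that of FKBP5 held no match to any motif. Over all 35116 RefSeq promoter windows, 48.4% held a HIF core, 7.26% an E-box, 0.39% a GR palindrome and 0.057% a carbohydrate response element. TSC22D3 had HIF cores in 2 of its 4 windows, but these 2 windows overlap and share a core. The single KLF9 window had no match to any of the 4 motifs.

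Per kilobase of the canonical transcript, DDIT4 was the most abundant of the 6 genes in every group, from 21.6 CPM per kb in WT8 shBMAL1 to 90.3 in 786O shControl (CPM, counts after scaling every library to the same size). FKBP5 was second in 3 of the groups at 7.61 to 10.3 CPM per kb, but in WT8 shControl, at 3.06 CPM per kb, it lay below TSC22D3 at 6.996 and TXNIP at 6.19. ARRDC4 and KLF9 were the lowest in every group, from 0.046 to 0.746 CPM per kb.

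In 786O, DDIT4 was at 158, 162 and 154 CPM in the shControl libraries and at 94.3, 97.1 and 98.1 CPM in the shBMAL1 libraries. In WT8, it was at 97.1, 91.5 and 96.9 CPM with shControl and at 37.2, 37.5 and 38.4 CPM with shBMAL1. The groups of each line did not overlap, and the WT8 shControl libraries lay at the level of the 786O shBMAL1 libraries, with means of 95.2 ± 3.17 and 96.5 ± 1.96 CPM (SD, n = 3) and overlapping ranges. DDIT4 was 1.64-fold lower with shBMAL1 in 786O (log2 change -0.71, SE 0.05) and 2.52-fold lower in WT8 (log2 change -1.34, SE 0.05). These values chose the genes and carry no test. Between the lines, which the choice did not use, DDIT4 was lower in WT8 with shControl (log2 change -0.73, SE 0.05, adjusted p = 1.58e-16) and with shBMAL1 (-1.36, SE 0.05, adjusted p = 1.26e-23).

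TXNIP had the largest response to shBMAL1 of the 6 genes in WT8. It was at 9.69, 7.43 and 9.78 CPM in 786O shControl and at 5.28, 6.04 and 5.23 CPM in 786O shBMAL1. In WT8 it was at 16.2, 19.7 and 17.9 CPM with shControl and at 2.21, 2.54 and 2.36 CPM with shBMAL1. WT8 thus held both the highest and the lowest group, and none of the 4 groups overlapped. TXNIP fell by 0.70 on the log2 scale in 786O (SE 0.12, adjusted p = 1.06e-05) and by 2.92 in WT8, which is 7.56-fold (SE 0.13, adjusted p = 7.78e-21). The difference between these responses was -2.22 (SE 0.18, adjusted p = 4.91e-13). Its direction between the lines turned with the shRNA, since TXNIP was higher in WT8 with shControl (log2 change 1.00, SE 0.11, adjusted p = 3.61e-10) and lower in WT8 with shBMAL1 (-1.22, SE 0.14, adjusted p = 1.44e-09).

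ARRDC4, the other α-arrestin gene here, did not follow TXNIP between the lines with shControl. It had 119, 98 and 99 counts in 786O shControl and 70, 126 and 118 in 786O shBMAL1. In WT8 it had 28, 21 and 13 counts with shControl and 8, 6 and 7 with shBMAL1. The 786O groups overlapped, and every WT8 library lay below every 786O library. In 786O the log2 change with shBMAL1 was -0.01 with a 95% interval of -0.45 to 0.44 (adjusted p = 0.986), so changes within that interval in either direction are not excluded. In WT8 ARRDC4 fell by 1.60 (SE 0.41, adjusted p = 0.000834), and the responses of the lines differed by -1.59 (SE 0.47, adjusted p = 0.00469). WT8 was below 786O by log2 changes of -2.39 with shControl (SE 0.27, adjusted p = 1.05e-09) and -3.98 with shBMAL1 (SE 0.33, adjusted p = 4.17e-13).

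**Figure D1:**
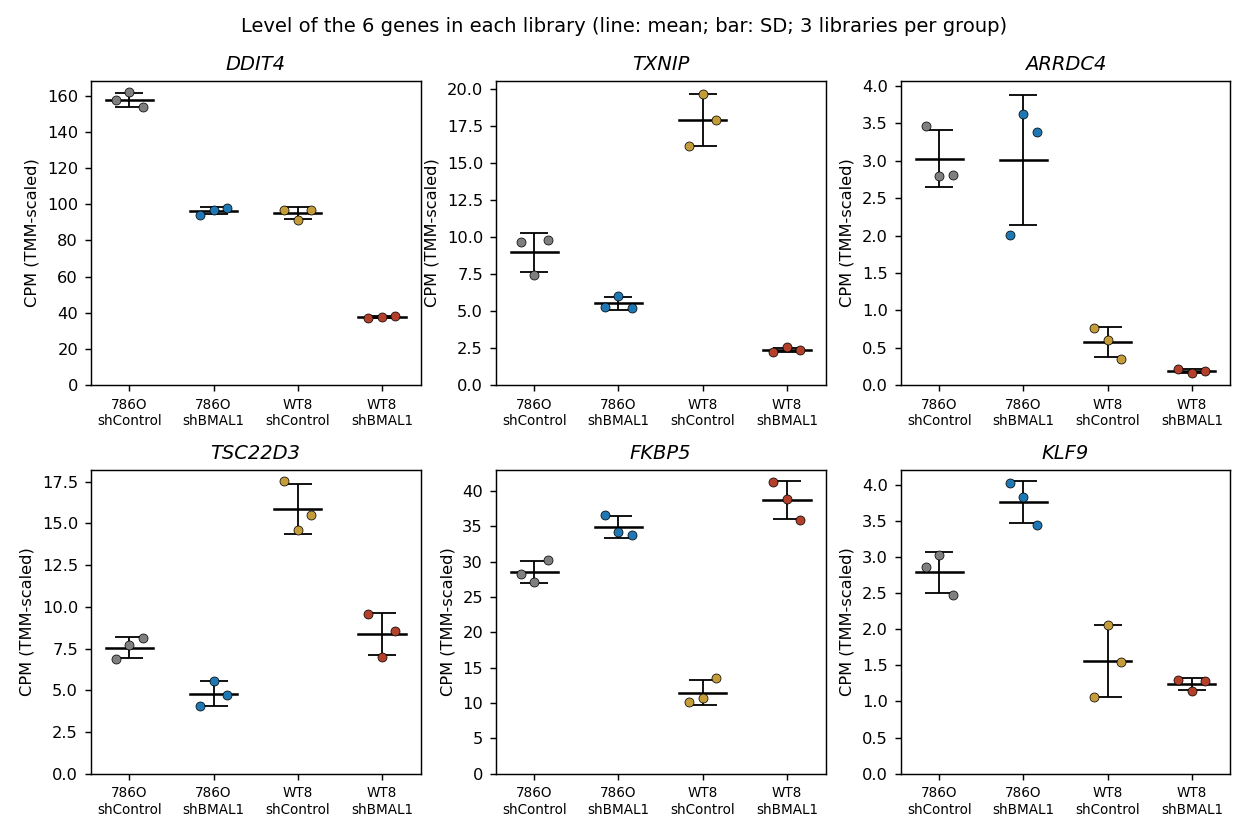
TMM-scaled CPM of each gene (vertical axis, from 0, own scale per panel) in the 12 libraries by group, with the line at the mean and the bar at the SD of 3 libraries. DDIT4 was lowest in WT8 shBMAL1 at 37.2 to 38.4 CPM, TXNIP was highest in WT8 shControl at 16.2 to 19.7 CPM, and FKBP5 was lowest in WT8 shControl at 10.2 to 13.5 CPM.

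TSC22D3 moved in the same direction as TXNIP with shBMAL1 in both lines. It was at 6.89, 7.69 and 8.10 CPM in 786O shControl and at 4.08, 5.58 and 4.71 CPM in 786O shBMAL1. In WT8 it was at 17.5, 14.6 and 15.5 CPM with shControl and at 9.54, 7.01 and 8.54 CPM with shBMAL1. The groups of each line did not overlap, while WT8 shBMAL1 overlapped 786O shControl. TSC22D3 fell by 0.66 in 786O (SE 0.13, adjusted p = 7.78e-05) and by 0.92 in WT8 (SE 0.11, adjusted p = 8.81e-09). The responses differed by -0.27, with a 95% interval of -0.61 to 0.07 (adjusted p = 0.208). That difference passed the threshold without 786O shBMAL1 replicate 1 (-0.36, adjusted p = 0.0963) or without WT8 shBMAL1 replicate 1 (-0.36, adjusted p = 0.0957), and over all its alternatives the adjusted p ran from 0.0957 to 1. TSC22D3 was higher in WT8 with shControl (log2 change 1.07, SE 0.12, adjusted p = 3.05e-10) and with shBMAL1 (0.80, SE 0.13, adjusted p = 1.01e-06).

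FKBP5 went the other way. It was at 28.2, 27.2 and 30.2 CPM in 786O shControl and at 36.7, 34.2 and 33.8 CPM in 786O shBMAL1. In WT8 it was at 10.2, 10.7 and 13.5 CPM with shControl and at 41.4, 38.9 and 36.0 CPM with shBMAL1. WT8 shControl lay below the other groups, and the shBMAL1 groups of both lines overlapped. FKBP5 rose by a log2 change of 0.29 in 786O (SE 0.08, adjusted p = 0.00337) and of 1.76 in WT8, which is 3.38-fold (SE 0.09, adjusted p = 1.92e-19), and the responses differed by 1.47 (SE 0.12, adjusted p = 4.48e-13). With shControl it was lower in WT8 than in 786O (log2 change -1.31, SE 0.09, adjusted p = 6e-16). With shBMAL1 the difference between the lines was 0.15 (SE 0.08, adjusted p = 0.0858). That call was lost without 786O shBMAL1 replicate 2 (adjusted p = 0.169) or 3 (0.21) and without WT8 shBMAL1 replicate 1 (0.286) or 2 (0.132).

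Across the WT8 groups, the level of FKBP5 moved with that of genes of dividing cells. The summed level of 12 proliferation markers was 2676 to 2780 CPM in 786O with shControl and 2710 to 2830 CPM with shBMAL1, but 592 to 625 CPM in WT8 with shControl and 2636 to 2656 CPM with shBMAL1. With shControl, each of the 12 was lower in WT8 than in 786O (median log2 change -1.93), as were 40.2% of all genes. All 12 were higher with shBMAL1 in WT8 (median 2.19), as were 32.9% of all genes. In 786O, 4 were higher with shBMAL1 and 2 lower, beside 24.5% and 24.4% of all genes. The part of these markers in the values of FKBP5 and of the other members in WT8 was not tested. In bulk RNA, fewer cells that use a gene and less of its RNA per cell cannot be told apart.

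KLF9 was scarce, and its response to shBMAL1 was uncertain in each line. It had 98, 106 and 87 counts in 786O shControl and 140, 133 and 120 in 786O shBMAL1. In WT8 it had 39, 71 and 57 counts with shControl and 49, 43 and 48 with shBMAL1. The 786O groups did not overlap, and the WT8 shBMAL1 libraries lay within the range of WT8 shControl, in which replicate 2 had the most. KLF9 rose by 0.43 in 786O (SE 0.20, adjusted p = 0.0722). That call was lost without 786O shControl replicate 1 (adjusted p = 0.12) or 3 (0.224), without 786O shBMAL1 replicate 1 (0.19) or 2 (0.151), and without a filter on low counts (0.104).

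In WT8 the log2 change of KLF9 was -0.32, with a 95% interval of -0.77 to 0.14 (adjusted p = 0.232). It ranged from -0.53 without WT8 shControl replicate 1 (adjusted p = 0.0472) to -0.07 without replicate 2. The responses of the lines differed by -0.75 (SE 0.30, adjusted p = 0.0376), and by -0.50 without WT8 shControl replicate 2 (adjusted p = 0.193). Lower KLF9 in WT8 than in 786O passed the test with shControl (log2 change -0.84, SE 0.21, adjusted p = 0.000573) and with shBMAL1 (-1.59, SE 0.21, adjusted p = 3.33e-08).

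**Figure D2:**
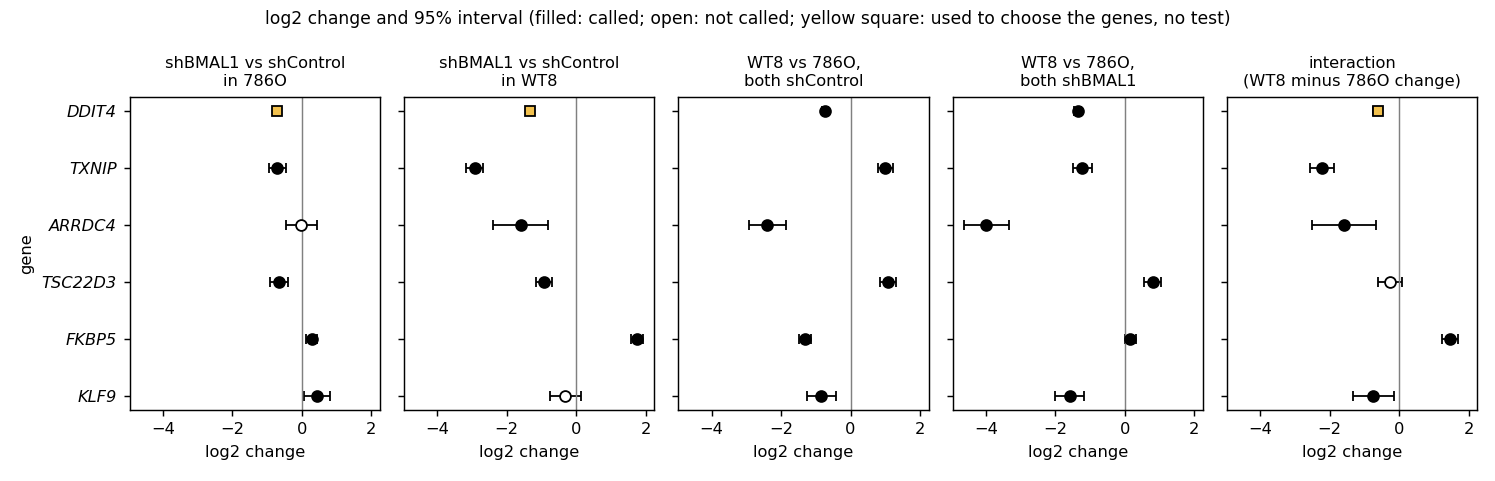
log2 change of each gene (horizontal axis) in the 5 comparisons, with bars of the 95% interval. Filled points were called, open points were not, and yellow squares are DDIT4 values that chose the genes. TXNIP reached -2.92 and FKBP5 1.76 with shBMAL1 in WT8, and ARRDC4 reached -3.98 between the lines with shBMAL1.

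With shBMAL1 in 786O, 2 members were called higher and 3 lower including DDIT4, where 24.5% of all genes tested were higher and 24.4% lower. In WT8, 1 was higher and 4 lower, where 32.9% of all genes were higher and 36.9% lower. DDIT4, TXNIP and TSC22D3 were lower in both lines, as were 13.6% of all genes. FKBP5 was higher in both, as were 12.4%, and 12.1% of all genes were called in opposite directions, a pattern no member had. The choice used these comparisons, so nothing is read from these counts. Between the lines with shControl, 2 members were higher in WT8 and 4 lower, beside 39.3% and 40.2% of all genes. With shBMAL1, 2 were higher and 4 lower, beside 36% and 37%. In the interaction, 1 of the 5 members tested was called above zero and 3 below, beside 27.4% and 28.5% of all genes, and DDIT4 is not counted because its value is made of those that chose the genes. Calls of members between the lines were thus set in a background in which most genes were called.

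The other GR target genes did not share 1 direction. Of 26 tested, 10 were higher and 9 lower with shBMAL1 in 786O, with a median log2 change of 0.00, equal to that of all genes. In WT8, 6 were higher and 17 lower, with a median of -0.59 against -0.04 for all genes. In both lines, 6 were lower, 2 higher and 9 called in opposite directions, beside 13.6%, 12.4% and 12.1% of all genes. Those lower in both lines included CDKN1C, ALOX5AP and TNFAIP3. In 786O, CDKN1C changed by -1.59 (SE 0.25, adjusted p = 4.12e-06) and ALOX5AP by -0.88 (SE 0.15, adjusted p = 8.19e-06). Of all genes, 24.5% were higher and 24.4% lower in 786O, and 32.9% and 36.9% in WT8. IGFBP1, which binds insulin-like growth factors, was higher in 786O (log2 change 1.01, SE 0.11, adjusted p = 6.37e-10) and lower in WT8 (-4.39, SE 0.14, adjusted p = 1.79e-25). ANGPTL4, an inhibitor of lipoprotein lipase that is also hypoxia-induced, did the same, with 1.07 (SE 0.06, adjusted p = 4.57e-16) and -2.93 (SE 0.06, adjusted p = 1.21e-30). The phosphatase gene DUSP1 was higher in 786O (0.69, SE 0.05, adjusted p = 1.5e-14) and lower in WT8 (-0.48, SE 0.05, adjusted p = 6.77e-11), and the clock gene PER1 went from -0.70 (SE 0.12, adjusted p = 6.19e-06) to 0.39 (SE 0.10, adjusted p = 0.00123). SGK1, a kinase that regulates ion transport, was not called in 786O (0.16, adjusted p = 0.113) and was higher in WT8 (0.46, SE 0.11, adjusted p = 0.000278).

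The receptor gene itself, NR3C1, was at 66.6 ± 0.838 CPM (SD, n = 3) with shControl and 76.8 ± 1.77 CPM with shBMAL1 in 786O, and at 50.3 ± 1.92 and 52.4 ± 1.14 CPM in WT8. It rose by 0.21 in 786O (SE 0.05, adjusted p = 0.00122), and its log2 change in WT8 was 0.06 (adjusted p = 0.333). With NR3C1 counted, 19 genes of the receptor, its chaperones, coregulators and hormone-converting enzymes were tested. Of these, 12 were higher and 4 lower in 786O and 11 higher and 4 lower in WT8. Among all genes, 24.5% were higher and 24.4% lower in 786O, and 32.9% and 36.9% in WT8. The chaperone gene HSP90AA1 rose by 0.47 in 786O (SE 0.04, adjusted p = 7.08e-12) and by 1.00 in WT8 (SE 0.04, adjusted p = 9.98e-22). HSPA8 rose by 0.61 in 786O (SE 0.04, adjusted p = 5.98e-15) and by 0.20 in WT8 (SE 0.04, adjusted p = 3.48e-05). STUB1, a ubiquitin ligase that acts on chaperone clients, fell by 0.64 in 786O (SE 0.06, adjusted p = 1.28e-10) and by 1.09 in WT8 (SE 0.06, adjusted p = 3.58e-17). FKBP4, the FKBP5 relative that promotes receptor transport, changed by 0.16 in 786O (SE 0.05, adjusted p = 0.0105) and by -0.04 in WT8 (adjusted p = 0.451). HSD11B2, which inactivates cortisol, had at most 31 counts in any library.

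**Figure D3:**
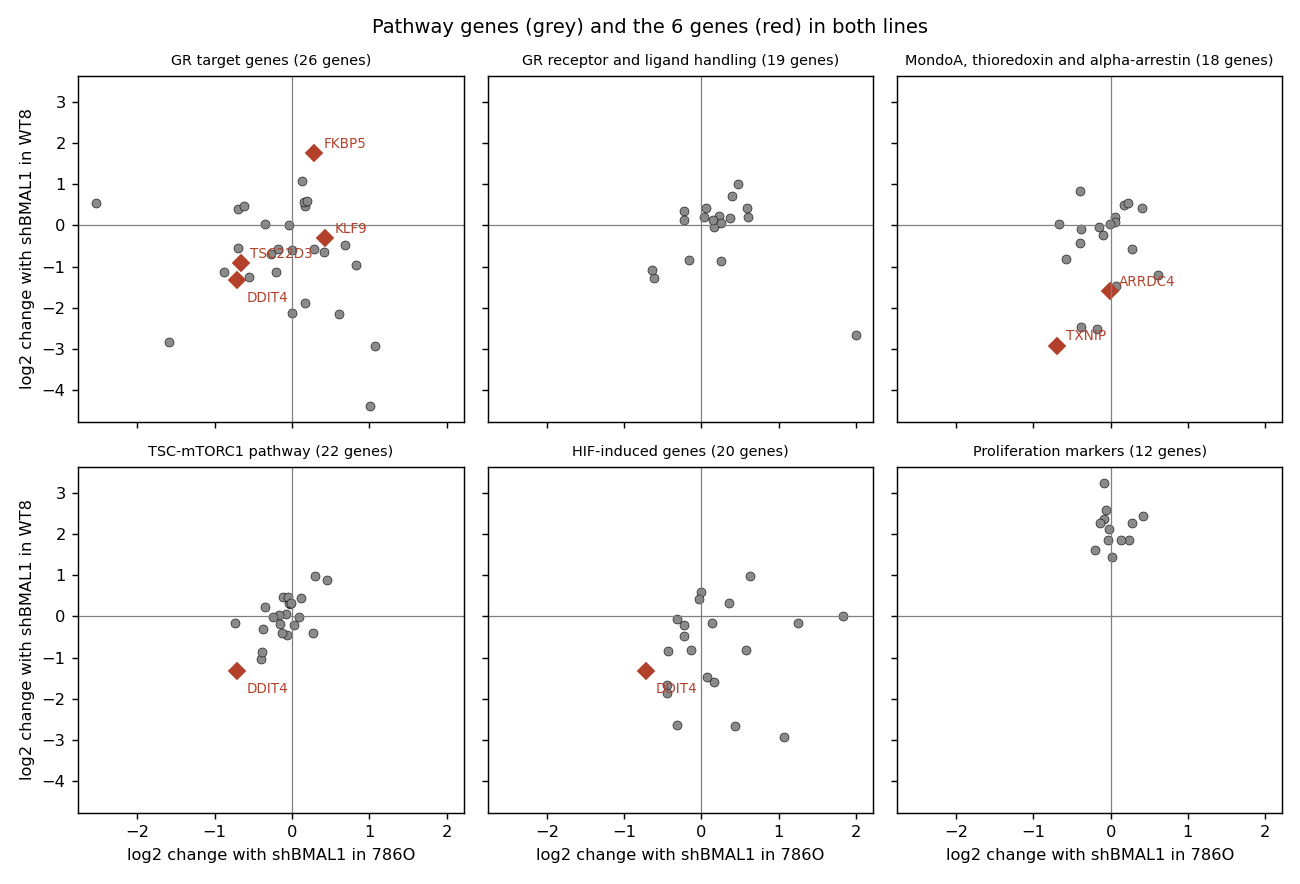
log2 change with shBMAL1 in 786O (horizontal) against WT8 (vertical) for the tested genes of 6 lists (grey) and for the members (red diamonds), which are not counted in the lists. GR target genes lie on every side of both zero lines, and the 12 proliferation markers all lie above 0 in WT8.

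Among genes of the MondoA, thioredoxin and α-arrestin group, MLXIP, which encodes MondoA, fell with shBMAL1 in both lines, as TXNIP did. It was at 117 ± 4.00 CPM in 786O shControl and 78.1 ± 0.995 in 786O shBMAL1, and in WT8 it was at 105 ± 3.99 with shControl and 60.1 ± 4.22 with shBMAL1. The falls were by 0.58 in 786O (SE 0.05, adjusted p = 1.07e-11) and by 0.81 in WT8 (SE 0.05, adjusted p = 5.15e-16). Its partner MLX was not called in 786O (-0.10, adjusted p = 0.359) and fell by 0.24 in WT8 (SE 0.09, adjusted p = 0.0219). MLXIPL, which encodes ChREBP, had at most 5 counts in any library and was not tested. The related α-arrestin gene ARRDC3 fell by 0.17 in 786O (SE 0.05, adjusted p = 0.00507) and by 2.52 in WT8 (SE 0.06, adjusted p = 1.95e-29). Thioredoxin itself (TXN) was not called in 786O (0.06, adjusted p = 0.367) and rose by 0.20 in WT8 (SE 0.05, adjusted p = 0.00112). Of the 18 genes tested in this group, 4 were higher and 7 lower in 786O and 6 higher and 8 lower in WT8, with medians of -0.06 and -0.07. The shares of all genes higher and lower were 24.5% and 24.4% in 786O and 32.9% and 36.9% in WT8.

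DDIT4 acts on the TSC-mTORC1 pathway. Of 22 tested genes of this pathway, 3 were higher and 10 lower with shBMAL1 in 786O and 9 higher and 9 lower in WT8, with medians of -0.07 and 0.02. Among all genes, 24.5% were higher and 24.4% lower in 786O, and 32.9% and 36.9% in WT8. RPTOR, the mTORC1 scaffold subunit, fell by 0.40 in 786O (SE 0.05, adjusted p = 8.31e-08) and by 1.03 in WT8 (SE 0.05, adjusted p = 6.82e-19). The translation repressor gene EIF4EBP2 rose by 0.45 (SE 0.07, adjusted p = 3.59e-06) and 0.87 (SE 0.07, adjusted p = 3.39e-13), and EIF4EBP1 fell by 0.74 in 786O (SE 0.06, adjusted p = 3.07e-12) and by 0.16 in WT8 (SE 0.06, adjusted p = 0.0209). SESN2, another stress-induced mTORC1 inhibitor, fell by 0.17 in 786O (SE 0.06, adjusted p = 0.0152) and was not called in WT8 (0.04, adjusted p = 0.496). DDIT4L, the paralog of DDIT4, had at most 9 counts in any library. These are RNA levels, and mTORC1 activity was not measured in these libraries.

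DDIT4 is also hypoxia-induced, so HIF-induced genes were set beside it. Of 20 tested, 9 were higher and 8 lower with shBMAL1 in 786O, and 4 were higher and 13 lower in WT8, with medians of 0.04 and -0.65. Among all genes, 24.5% were higher and 24.4% lower in 786O, and 32.9% and 36.9% in WT8. In both lines, 7 of the 20 were lower, 2 higher and 5 called in opposite directions, beside 13.6%, 12.4% and 12.1% of all genes. PFKFB4 and CCND1 were among those lower in both. Their log2 changes in 786O were -0.45 (SE 0.08, adjusted p = 3.68e-05) and -0.45 (SE 0.04, adjusted p = 1.17e-10). EGLN3, a HIF prolyl hydroxylase, was called in opposite directions. It rose by 0.43 in 786O (SE 0.07, adjusted p = 1.93e-06) and fell in WT8 (log2 change -2.67, SE 0.15, adjusted p = 1.07e-17). Between the lines with shControl, 5 of the 20 were higher in WT8 and 12 lower, beside 39.3% and 40.2% of all genes. With shBMAL1, 16 were lower and 4 not called, where 37% of all genes were lower. Among the families of the GR readouts, 11 of 29 tested TSC22, FKBP and KLF genes were higher and 6 lower in 786O, and 8 were higher and 15 lower in WT8. The shares of all genes higher and lower, given above, were 24.5% and 24.4% in 786O and 32.9% and 36.9% in WT8. TSC22D1 rose by 0.20 in 786O (SE 0.06, adjusted p = 0.0139) and fell by 0.63 in WT8 (SE 0.06, adjusted p = 7.71e-11), whereas TSC22D3 fell in both.

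Profiles over the 12 libraries were compared by the root-mean-square difference of log2 CPM, after centring each gene on its own mean, among 12942 genes with at least 50 counts on average. This likeness is a description, since all genes share the same libraries and groups. The gene nearest to DDIT4 was TNFAIP3, an inhibitor of NF-κB signalling that was itself on the GR target list, at a difference of 0.105 where the median gene was at 0.830. TNFAIP3 was at 43.6 ± 2.17, 29.6 ± 0.614, 29.2 ± 1.04 and 12.2 ± 0.918 CPM in the order in which the groups are plotted for DDIT4, and the next gene was MYOM3 at 0.133. For FKBP5 the nearest were the mitotic cyclin gene CCNB1 at 0.1159 and LRR1 at 0.116, and 103 genes lay within 0.25 of it. CCNB1 was one of the 12 proliferation markers above.

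TXNIP had few close neighbours, with 4 genes within 0.25, led by the cytoskeletal adaptor gene OBSL1 at 0.165 and HOST2 at 0.213. ARRDC4 had none within 0.25, and SPATA18 at 0.284 and EVA1A at 0.288 were nearest. The nearest to TSC22D3 were TRIM74 at 0.158, whose counts are uncertain because near-identical copies exist, and the phospholipase gene PLD2 at 0.171. The motor protein gene MYO5B at 0.201 and GLB1L at 0.206 were nearest to KLF9. Members were left out of this search.

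**Figure D4:**
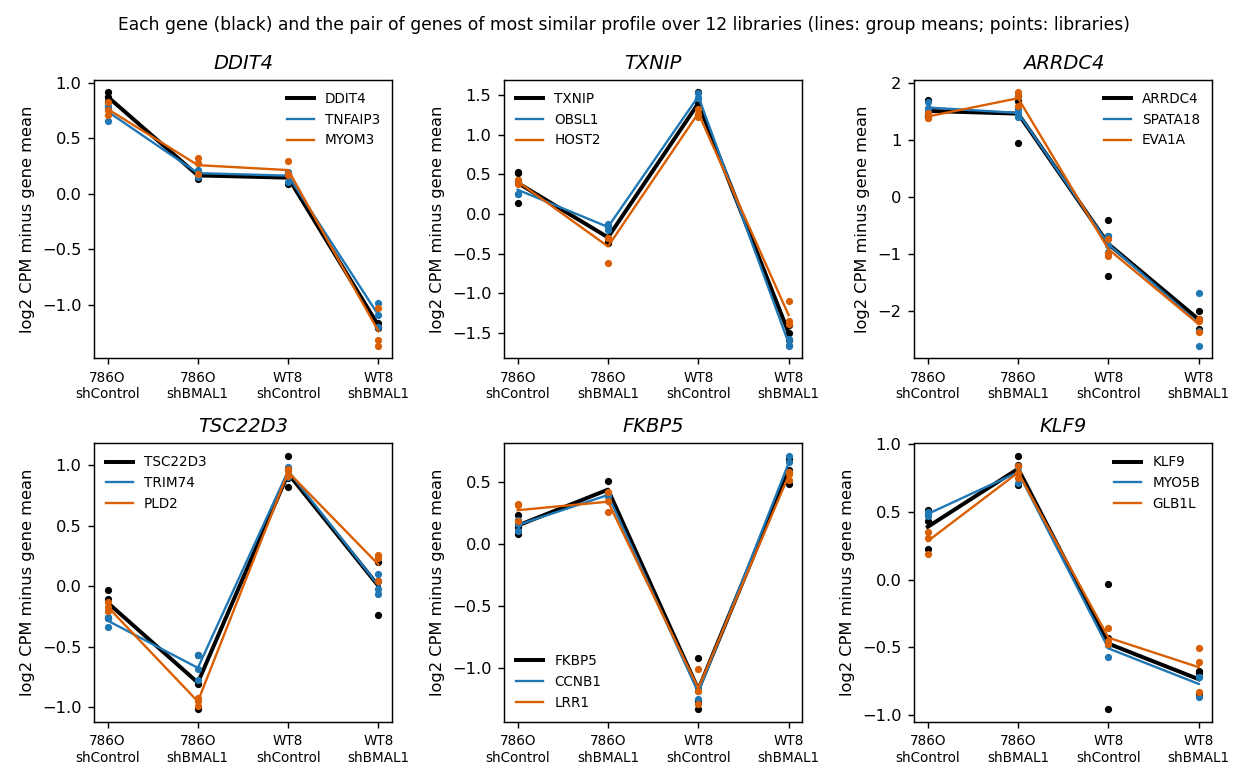
log2 CPM minus the gene's mean over 12 libraries (vertical axis) by group for each member (black) and the pair of genes of most similar profile (blue and orange). Lines join group means and points are libraries. FKBP5 and CCNB1 both dip in WT8 shControl, and DDIT4 and TNFAIP3 both descend from 786O shControl to WT8 shBMAL1.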

How the data were processed

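RNA was isolated on spin columns, and stranded mRNA libraries were sequenced by BGI. Estimated counts per gene were deposited by the authors, not scaled between libraries. The methods of the study name SeqMan NGen, ArrayStar and GRCh37, whereas the submitters' processing notes name STAR, DESeq2 and hg38. Which made the table, the annotation and the use of strand are not given in the sources used here. The mates of a read pair may have been counted separately, so counting precision may be lower than the counts imply.

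Lines with the same gene name were summed (38074 lines, 38021 names), the stand-in value 0.028 was set to 0, and counts were rounded, where whole counts had been assumed when the test was chosen. Of the values above the stand-in, 5.67% were not whole. filterByExpr kept 16838 genes, libraries were TMM-scaled (factors 0.948 to 1.04), and all 12 libraries entered 1 robust quasi-likelihood fit of 4 group means in edgeR 4.0.16 (R 4.3.3). The common biological coefficient of variation was 5.70%. Adjusted p-values are Benjamini-Hochberg values of this two-sided test over all genes tested, called under 0.1. The interaction subtracts the response to shBMAL1 of 786O from that of WT8, and SE was derived from the log2 change and its F value. Replicates differed by more than sampling noise (chi-square per gene 4.37 to 11.6), so all 12 were counted separately. P-values measure the spread between labelled biological replicates of 1 shRNA line each.

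The members and lists were chosen with earlier results of these data known, and the lists were written from memory. Named genes are the members, 16 genes fixed by role, at most the 2 largest rises and 2 largest falls per list and comparison, and the 2 genes of nearest profile per member. Alternatives were other scalings, filters, thresholds, DESeq2 1.42.0, a replicate block and leaving out each library.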

Additional observations from a re-analysis of the deposited data

Results flagged for a closer look

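For 4 genes the response to shBMAL1 differed between the lines by the edgeR test of the interaction. The log2 change in WT8 minus that in 786O was -2.22 for TXNIP (SE 0.18, adjusted p = 4.91e-13), -1.59 for ARRDC4 (SE 0.47, adjusted p = 0.00469), 1.47 for FKBP5 (SE 0.12, adjusted p = 4.48e-13) and -0.75 for KLF9 (SE 0.30, adjusted p = 0.0376). The interaction was called for 27.4% of all genes above zero and 28.5% below. BMAL1 depletion was unequal between the lines. BMAL1 went from 12.1 to 3.94 CPM in 786O and from 9.24 to 1.66 CPM in WT8. VHL went from 18.8 to 19.4 CPM in 786O and from 981 to 647 CPM in WT8. The part of these levels in the interaction and in the responses of WT8 was not tested. The value for KLF9 rested on WT8 shControl replicate 2, and was -0.50 (adjusted p = 0.193) without it.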

How the results depend on the processing

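The 6 genes had 654 values under the alternatives. They include DDIT4 with shBMAL1 in 786O (22 values), in WT8 (22) and in the interaction (21). Those DDIT4 values chose the genes or are made of values that did, so their part in these counts is only a description. Of the 654, 626 kept their direction and their side of the threshold, 18 were no longer called, 3 became called and 2 moved by more than the replicate SD. The other 5 are ARRDC4 in 786O, which was called under none of its alternatives (adjusted p from 0.539 to 1) and whose log2 change was just above 0 with RLE factors, library totals or DESeq2, 0.10 without 786O shControl replicate 1 and 0.21 without 786O shBMAL1 replicate 1. In a test against a fold change of 1.5, the 4 tested members called in 786O were no longer called, and the count of 1 there is DDIT4, whose value chose the genes and supports nothing. In the interaction 3 were called, TXNIP, ARRDC4 and FKBP5. The same test called 990 genes in 786O (8237 in the test against no change), 4313 in WT8 (11753), 6993 between the lines with shControl (13378), 5023 with shBMAL1 (12295) and 3134 in the interaction (9427). Upper quartile scaling gave DDIT4 -1.41 in WT8 and -0.69 in the interaction. Without TMM, the median of all genes shifted by 0.12 between the lines with shControl and 0.10 with shBMAL1, and with upper quartile scaling by 0.11 with shControl. At an adjusted p under 0.05, KLF9 in 786O and FKBP5 between the lines with shBMAL1 were not called.

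Same-numbered replicates did not deviate together (correlations from -0.05 to 0.01, own number best for 0 of 12 libraries), so no pairing by number was detected. The labels do not say whether same-numbered samples were prepared together. With the replicate block, 8055 genes and 5 members, DDIT4 included, were called in 786O, and no member's call changed. ARRDC4 and KLF9 are limited by depth, with 6 to 28 and 39 to 71 counts in WT8.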
